A study of Mus musculus with 2 samples.

Results

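Myeloid fate in blood formation is directed by a small set of transcription factors, of which 9 genes were followed: Sfpi1, Cebpa, Cebpb, Cebpd, Cebpe, Irf8, Gfi1, Klf4 and Runx1. They were chosen by gene name among the non-control probes of the array, where 10 of 55681 probes carried these names, 2 for Runx1 and 1 for each of the others. All 9 genes were among the 19870 genes or lincRNA intervals tested. Sfpi1, which encodes PU.1, is now named Spi1. The 2 arrays each compared total RNA of GFP-positive, sorted fetal liver erythroid progenitors (lineage-negative cells, C57BL/6, E14.5) transduced with ESlncRNA against the same kind of cells transduced with the vector. ESlncRNA, a long noncoding RNA of erythroid cells, was labelled with Cy5 and vector with Cy3 on both arrays, so no dye swap separates the dye from the treatment. The labels do not say how many embryos or cultures the RNA came from, nor what the vector carried besides GFP.

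PU.1 and the C/EBP proteins are the core activators of granulocyte and monocyte genes. PU.1 and GATA1 bind and oppose each other, and the balance between them is a textbook model of the choice between myeloid and erythroid fate. IRF8 and KLF4 act in monocytes, GFI1 is a repressor needed for granulocytes, and RUNX1 is needed for the first blood stem cells and is shared by many blood lineages.

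The probes are oligonucleotides of 60 bases, and the first 30 bases of 7 of them are given to show that close relatives were read through unrelated sequence. They are the probes of the C/EBP genes, of Sfpi1 and, as a pair within 1 gene, of Runx1.
Cebpa: ttttgttttggttttgctctgattcttgcc
Cebpb: agaggcgtatgtatattttgagaacctttt
Cebpd: gacatttccgacagacttttgtagataaga
Cebpe: attgggaaggtcgggaccaaatgattctgt
Sfpi1: gatggagaaagccatagcgatcactactgg
Runx1, brighter probe: caggagggcccttggaggccaccaggaaga
Runx1, other probe: tgtgcatcgtgtcactgtaaatgtaatggt
The longest run that any of the 10 probes shared with an array probe of another gene, on either strand, was 13 to 17 of 60 bases. On mm9, the build of the array files, the Cebpa probe lies on chromosome 7 from 35906517 to 35906576 and the Cebpb probe on chromosome 2 from 167515828 to 167515887, both on the forward strand. The Cebpd probe lies on chromosome 16 from 15888459 to 15888518 (forward) and the Cebpe probe on chromosome 14 from 55329200 to 55329259 (reverse). The Sfpi1 probe spans chromosome 2 from 90939665 to 90953452 (forward), so its 60 bases join exons across an intron. It starts at base 275 of its transcript per the file, closer to the 5′ end than the other probes, which start between bases 1080 and 4166. The remaining probes lie on chromosome 8 from 123280324 to 123280383 (Irf8, forward), chromosome 5 from 108145719 to 108145778 (Gfi1, reverse) and chromosome 4 from 55540167 to 55540226 (Klf4, reverse). The Runx1 probes lie on chromosome 16 from 92605785 to 92605844 and from 92604413 to 92604472 (reverse).

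The arrays were alike in quality, with 44.4% to 52.1% of the spots of a channel well above background. Over 120 probes with at least 10 spots the arrays differed by a median of 0.024 in log2 ratio, where the noise between spots alone gives 0.0247. Nothing in the labels says that the arrays hold separate cultures, and whether they share RNA was not tested. Some erythroid genes did differ between arrays within a condition, such as Slc4a1, the band 3 anion exchanger (vector 2200 and 327, log2 ratios -0.45 and 1.48), and Alas2, the first enzyme of erythroid heme synthesis (vector 1760 and 592), both named after their values were seen. The p-values cover only the spread of 2 arrays, which may be technical. The over-expressed RNA was read first, through a lincRNA interval on chromosome 4 recognised by its neighbours Eps15 and Ttc39a. Its brightest probe (109076298 to 109076357) rose by 2.21 ± 0.024 on the log2 scale, which is at least 4.62-fold, as its vector signal did not clear the background. That probe passed the filter through its ESlncRNA channel alone and was picked by intensity. The choice thus favoured a rise, and the value is no independent check of over-expression.

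All 9 factors were lower with ESlncRNA. Cebpe fell most (19.6-fold), followed by Cebpa (12.1-fold), Gfi1 and Cebpd (10.9-fold each), Irf8 (6.59-fold) and Sfpi1 (4.88-fold). Cebpb (2.45-fold), Klf4 (2.04-fold) and Runx1 (1.66-fold) fell less. All passed the test (limma, Benjamini-Hochberg adjusted p under 0.05), where 36.8% of all genes tested were called lower and 26.3% higher. The median log2 ratio of the 9 factors was -2.72, against -0.03 over all genes. On each array alone, 8 of the 9 fell by 2-fold or more, as did 8.1% of all genes on both arrays. A fall of 4-fold or more on both was seen for 6 of 9 (2.81% of all genes), and of 8-fold or more for 4 of 9 (0.931%). The balance of calls over all genes rests on the normalization, with 7305 genes lower and 5223 higher after loess but 3633 lower and 12511 higher after median centring. These log2 ratios include an offset of 50 added to every signal, which shrinks the ratios of dim probes.

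**Figure D1:**
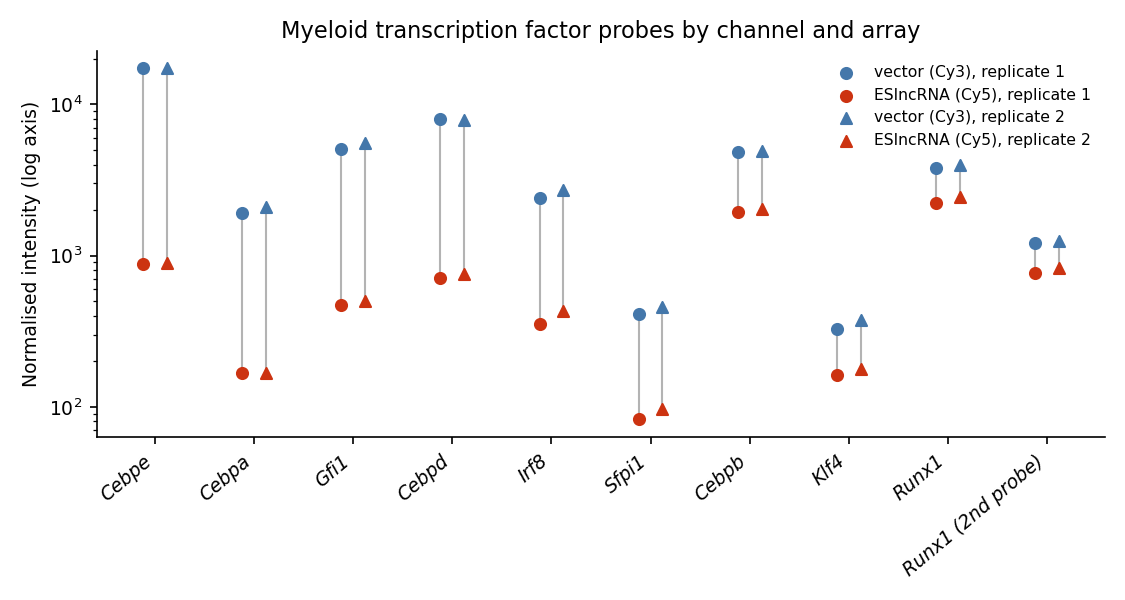
Normalised intensity (log axis) of the 10 probes in the vector channel (blue) and the ESlncRNA channel (red), with circles for replicate 1 and triangles for replicate 2 and a grey line joining the channels of 1 array. Every red point lies under its blue partner, with the longest line for Cebpe (17286 against 878 on the array of replicate 1) and the shortest lines for the Runx1 probes.

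PU.1 stands at the head of this network as the ETS factor that both granulocytes and monocytes need. The normalised intensity of its gene, Sfpi1, was 413 and 458 with the vector and 82.5 and 96.1 with ESlncRNA, on the arrays of replicates 1 and 2. The channels did not overlap, and the log2 ratio was -2.29 ± 0.051 (SD, n = 2 arrays, adjusted p = 2.16e-07). The ESlncRNA values lay near the added 50, and the uncorrected signal there was 80.2 and 107 over a local background of 49 and 53.5. The fall was 4.88-fold as processed here, 9.06-fold without the offset and 11.2-fold with the scanner software's processed signals, which differ in both background and dye correction. Direction and call were the same under each.

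The 4 C/EBP genes are leucine zipper factors that bind the same type of site. Cebpa, needed for the step into granulocyte and monocyte progenitors, had intensities of 1916 and 2092 with the vector and 166 and 166 with ESlncRNA. Its log2 ratio was -3.60 ± 0.088 (adjusted p = 6.69e-08). Cebpe, which drives the late granulocyte stages and the genes of secondary granules, read 17286 and 17327 with the vector and 878 and 888 with ESlncRNA. Its log2 ratio of -4.29 ± 0.0084 (adjusted p = 5.41e-08) ranked 37 from the lowest of 19870 genes. With median centring in place of loess the fall of Cebpe was 13.0-fold.

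Cebpd, a member induced by cytokines and in acute inflammation, read 7950 and 7871 with the vector and 706 and 751 with ESlncRNA. Its log2 ratio was -3.44 ± 0.074 (adjusted p = 6.88e-08). Cebpb, which acts in macrophages and in emergency granulocyte production, stood apart from the other C/EBP genes in size. It read 4844 and 4897 with the vector and 1953 and 2028 with ESlncRNA, a log2 ratio of -1.29 ± 0.028 (adjusted p = 2.07e-06). On both arrays the ratio of Cebpb (-1.31 and -1.27) was closer to 0 than those of Cebpd (-3.49 and -3.39), Cebpa (-3.53 and -3.66) and Cebpe (-4.30 and -4.29). Differences between genes were not tested.

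Gfi1 encodes a zinc finger repressor that favours granulocytes over monocytes. Its intensities were 5074 and 5540 with the vector and 472 and 502 with ESlncRNA, with a log2 ratio of -3.45 ± 0.026 (adjusted p = 6.40e-08). Irf8, the interferon regulatory factor that favours monocytes and dendritic cells, was lower as well. It read 2405 and 2705 with the vector and 351 and 427 with ESlncRNA, a log2 ratio of -2.72 ± 0.081 (adjusted p = 1.45e-07). Factors of the granulocyte and of the monocyte branch thus fell on the same arrays.

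Klf4, a Krüppel-like factor of inflammatory monocytes and also of many epithelia, was among the dim probes. Its intensities were 325 and 373 with the vector and 162 and 179 with ESlncRNA, with a log2 ratio of -1.03 ± 0.039 (adjusted p = 6.56e-06). Both arrays lay near 2-fold, and the gene ranked 1656 from the lowest of all genes.

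Runx1, the Runt domain factor of stem cells, changed least of the 9. Its brighter probe, in the transcript NM_001111022, read 3768 and 3998 with the vector and 2241 and 2441 with ESlncRNA. That is a log2 ratio of -0.73 ± 0.027 (adjusted p = 3.13e-05). The other probe read 1212 and 1254 against 762 and 830, a log2 ratio of -0.63 ± 0.053 (adjusted p = 7.35e-05), so the probes differed by 0.10. With median centring the brighter probe stood at -0.17 and did not pass (adjusted p = 0.063), and the other at -0.18 passed (adjusted p = 0.0446). All genes together had a median of 0.34 after median centring. Set against the median of all genes, the brighter probe was at -0.70 after loess and -0.51 after median centring.

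**Figure D2:**
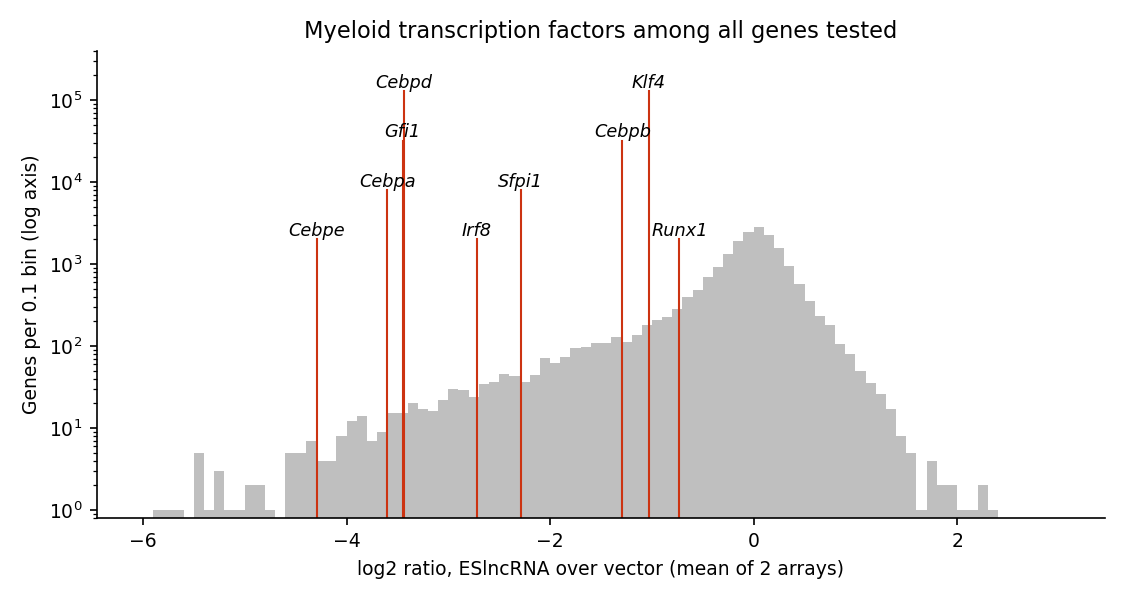
Histogram of the log2 ratio of ESlncRNA over vector (mean of 2 arrays) for 19870 genes in bins of 0.1, with the number of genes on a log axis and red lines at the 9 factors. Cebpe at -4.29, Cebpa, Gfi1, Cebpd, Irf8 and Sfpi1 stand in the long lower tail, while Runx1 at -0.73 lies on the shoulder of the main peak.

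Among all genes ordered from the lowest ratio, Cebpa ranked 98, Gfi1 119 and Cebpd 122, all within the lowest 0.614%. Irf8 ranked 280 (1.41%) and Sfpi1 443 (2.23%). Cebpb ranked 1284 (6.46%) and Runx1 2336 (11.8%).

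**Figure D3:**
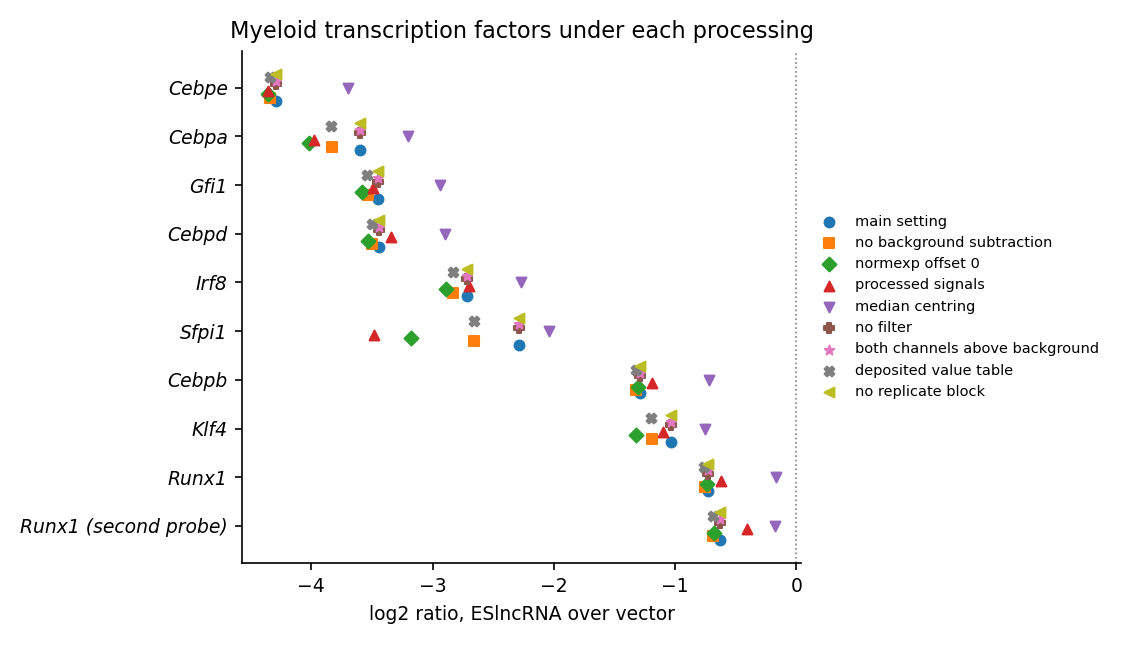
Log2 ratio of ESlncRNA over vector for each probe under 9 processing settings, 1 marker shape and colour for each, with the dotted line at 0. All markers lie below 0, median centring is closest to 0 for each gene, and Sfpi1 spreads widest, from -3.48 to -2.04.

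Relatives of these factors were read from the same arrays. Of 34 relatives listed, 31 were measured, of which 20 were called lower, 7 higher and 4 neither, with a median of -0.24. Median centring turned this to 11 lower and 15 higher. Over all genes, 36.8% were called lower and 26.3% higher after loess. Median centring called 3633 of the 19870 lower and 12511 higher. Of 3 genes listed as other C/EBP relatives, none was lower under any scaling tried, while the 4 C/EBP factors described above all were. Of these relatives, Cebpz (0.08, adjusted p = 0.217) was listed by its symbol and not as a leucine zipper factor. Ddit3, the stress factor CHOP, rose slightly (0.31 ± 0.17, adjusted p = 0.00736), a call lost without the offset (adjusted p = 0.0626) and in the authors' deposited table (adjusted p = 0.108). Cebpg, a widely expressed C/EBP protein without its own activation domain, stood at 0.14 ± 0.055 (adjusted p = 0.0512) and was called higher under several alternatives, median centring included (0.52).

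Gfi1b, the erythroid and megakaryocyte counterpart of Gfi1, rose 1.99-fold. Its intensity went up on both arrays, with a log2 ratio of 0.99 ± 0.0027 (adjusted p = 6.91e-06), against -3.45 for Gfi1. All 7 measured ETS relatives of PU.1 fell, with a median of -0.66. Fli1, a factor of megakaryocytes and endothelium, fell most (5.78-fold). Erg, a factor of stem cells, was at least 2.45-fold lower on its brightest probe, while its other probe stood at -0.45. Of the 7, 6 were called lower from the processed signals and 5 after median centring, settings that called 4706 and 3633 of all genes lower. Spib and Spic, the closest ETS relatives of PU.1, did not pass the background filter, nor did Irf4, the closest relative of Irf8.

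Of 7 measured IRF genes, 5 fell, 1 rose and 1 did not pass, with Irf1 7.57-fold and Irf5 5.24-fold lower and a median of -0.27, although with median centring 3 fell and 4 rose. Irf1 and Irf5 are activators of interferon and inflammatory genes. Cbfb, the partner that stabilises RUNX proteins on DNA, fell 2.39-fold. Runx3 (-0.40 ± 0.11) and Runx2 (-0.17 ± 0.011) fell slightly, and both calls were lost with median centring (adjusted p = 0.923 and 0.0979). The other Runx3 probe stood at -0.17. The Runx2 signal with ESlncRNA did not clear the background, so its fall is at least 1.13-fold. Runx3 also missed with the processed signals (adjusted p = 0.125) and Runx2 without the replicate block (adjusted p = 0.0877). Of 10 KLF genes, 5 fell, 4 rose and 1 did not pass, and with median centring 2 fell and 7 rose. Of all 19870 genes, loess called 36.8% lower and 26.3% higher, and median centring called 12511 higher. Klf2, a factor of quiescent leukocytes and endothelium, was 3.30-fold lower, and Klf1, the erythroid member, 1.82-fold higher.

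**Figure D4:**
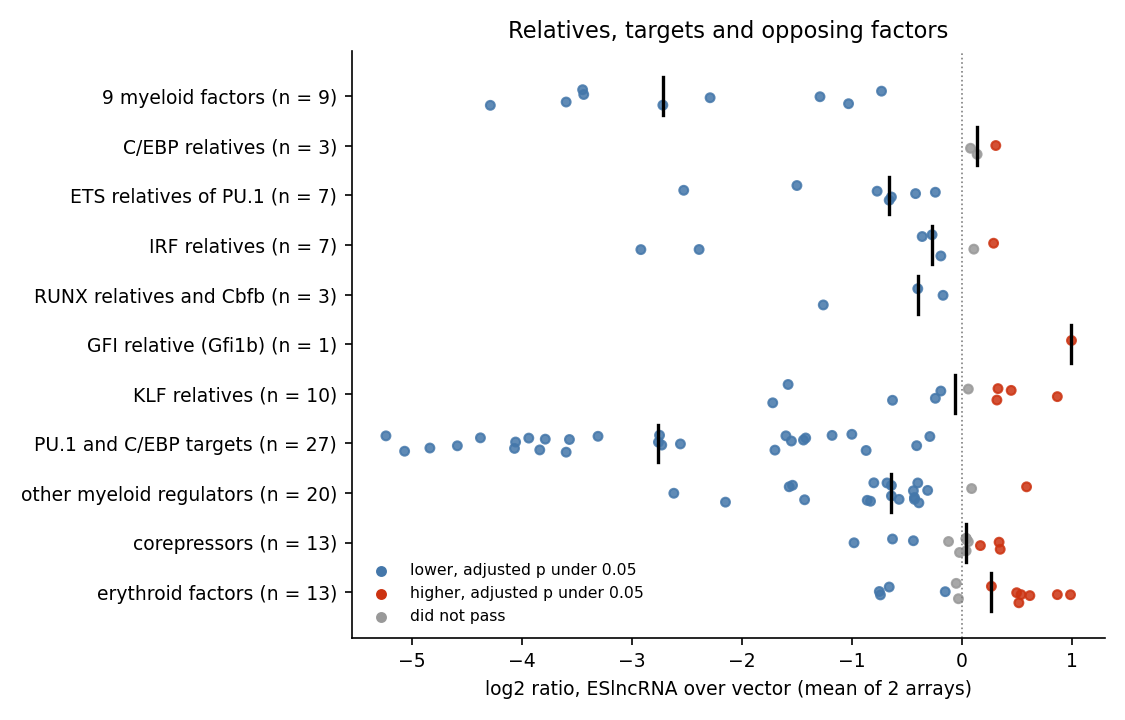
Log2 ratio of ESlncRNA over vector (mean of 2 arrays) for each gene tested in a list, 1 row a list, with blue points called lower, red points called higher, grey points that did not pass and a black bar at the median. The 9 factors (median -2.72) and the targets of PU.1 and C/EBP proteins (median -2.76) lie to the left, and the erythroid factors (median 0.27) to the right.

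Known targets of PU.1 and the C/EBP proteins were lower along with the factors. All 27 listed passed the background filter and were called lower, with a median of -2.76, where 36.8% of all genes were called lower. With both channels required above background, 22 remained to be tested and were called lower (median -3.58), and the processed signals gave 25 lower (median -3.59). The 4 genes of primary granules had a median of -3.99 and the 6 of secondary granules, which C/EBPε activates, -4.19. Ctsg, cathepsin G, was 37.9-fold lower, Camp, the cathelicidin of secondary granules, 33.6-fold, Mmp8, the neutrophil collagenase, 28.7-fold, and Ncf1, a subunit of the phagocyte oxidase, 16.7-fold lower. The list chosen for this purpose overlaps the markers given below, so the counts are not independent. The 4 primary and 6 secondary granule genes and Csf3r are also granulocyte markers there. Csf1r, Cd14, Lyz2 and Fcgr1 are also macrophage and monocyte markers. With median centring 25 of the 27 were called lower and 2 higher, Csf3r and Itgam, which are named after their values were seen and stood at -0.29 and -0.41 after loess.

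Genes on a list of erythroid factors, which also holds the receptor gene Epor, were called in both directions after loess. Whether each of them opposes PU.1 was not tested. Gata1, the erythroid factor set against PU.1 above, rose 1.41-fold. Gata1 and Epor are named here for their roles and not by p. Of 13 measured, 7 were called higher, 4 lower and 2 neither, around a median of 0.27. Besides Gfi1b and Klf1, the members with the smallest p were Lyl1, a helix-loop-helix factor (1.67-fold lower), and Gata2, a factor of early progenitors and mast cells (1.68-fold lower). With median centring 10 of the 13 were called higher and none lower, with a median of 1.13, and Lyl1 stood at 0.15. Of all 19870 genes, the same setting called 12511 higher, with a median of 0.34 over all genes. After loess 26.3% of all genes were called higher.

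Of 20 other regulators of myeloid cells measured, 18 were called lower, 1 higher and 1 did not pass, with a median of -0.64. Among all genes 36.8% were called lower and 26.3% higher. With both channels required above background, 17 regulators remained and 16 were called lower. Median centring called 13 of the 20 lower and 3 higher. Nfil3, a leucine zipper factor, was 6.15-fold lower, Id2, an inhibitor of helix-loop-helix factors, 4.44-fold, Bcl6, a repressor, 2.98-fold and Fos, of the AP-1 complex, 2.90-fold lower. Corepressors that work with GFI1 or RUNX1 showed no common direction after loess, with 3 of 13 lower, 3 higher and 7 not passing (median 0.04). Median centring called 1 lower and 11 higher and, of all 19870 genes, 12511 higher. Tle3 was 1.98-fold lower. Cbfa2t3 was 1.55-fold lower on its brightest probe, while its other probes stood at -0.22 and 0.09, and its call was lost with median centring (adjusted p = 1). Ehmt2 was 1.36-fold lower but at 0.39 with median centring, and Tle1 was 1.28-fold higher.

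Promoter sequence was searched because 8 of the 9 genes fell at least 2-fold on both arrays, though Sfpi1, Cebpd and Cebpe had no window. RefSeq (GRCm38.p6) gave 9 windows for 6 of the genes, Cebpa, Cebpb, Gfi1, Irf8, Klf4 and Runx1, and the 250 bases before each start were searched on both strands. The ETS core GAGGAA was in 1 of the 9 windows and in 23.3% of the 32851 windows of all genes. That window was of Runx1, the gene that fell less than 2-fold. The C/EBP pattern TTNCNNAA was in 1 window, of Gfi1, and in 36.8% of all windows. No window held GATAA (22.6% of all windows) or TGTGGT, the RUNX site (14.0%). CACCC, bound by KLF proteins, was in 4 windows (52.0% of all), and AATC, the short GFI1 core, in 5 (69.0% of all). The windows with an ETS or C/EBP match and that of Cebpa, with neither, are given with the match in capitals.
Gfi1, chr5:107725806-107726055, reverse strand: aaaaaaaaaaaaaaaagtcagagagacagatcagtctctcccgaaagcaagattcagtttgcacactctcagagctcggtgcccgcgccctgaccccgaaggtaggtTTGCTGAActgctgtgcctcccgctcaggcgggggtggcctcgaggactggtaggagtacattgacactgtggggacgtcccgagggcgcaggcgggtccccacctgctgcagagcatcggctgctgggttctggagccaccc
Runx1, chr16:92697330-92697579, reverse strand: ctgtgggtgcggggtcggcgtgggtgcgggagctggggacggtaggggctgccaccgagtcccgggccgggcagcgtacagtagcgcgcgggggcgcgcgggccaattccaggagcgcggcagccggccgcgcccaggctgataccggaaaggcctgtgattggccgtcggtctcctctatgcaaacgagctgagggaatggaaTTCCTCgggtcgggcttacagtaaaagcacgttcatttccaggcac
Cebpa, chr7:35119043-35119292, forward strand: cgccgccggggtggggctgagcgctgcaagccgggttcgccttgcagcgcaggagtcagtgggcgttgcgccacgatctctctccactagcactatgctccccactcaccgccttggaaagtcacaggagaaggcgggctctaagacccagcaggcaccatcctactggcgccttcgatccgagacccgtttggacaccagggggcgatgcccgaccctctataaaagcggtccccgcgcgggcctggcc
The Gfi1 match begins 143 bases before the start and the Runx1 match, GAGGAA read on the other strand, 46 bases before it. These matches are descriptions of letters in a window and say nothing of binding.

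Markers of several cell types moved on the same arrays, where 36.8% of all genes were called lower and 26.3% higher. In bulk RNA, fewer cells of a type and less RNA per cell cannot be told apart. All 16 granulocyte markers, Cebpe among them, fell with a median of -4.34, and their summed normalised intensity was 1225681 and 1359512 with the vector and 71328 and 84808 with ESlncRNA. Of 17 macrophage and monocyte markers 14 were measured and all 14 fell (median -1.48), with sums of 16725 and 17021 against 2730 and 2793, while Cd163, C1qa and Timd4 did not pass the background filter. Of these 14, 7 had both channels above background and were called lower (median -2.06), and the median was -2.41 without the offset and -2.80 with the processed signals. The part of these markers in the values of the 9 factors was not tested.

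Mast cell, basophil and eosinophil markers fell too, 11 of 11 measured (median -2.06, sums of 26998 and 28424 against 5757 and 6481). Only 7 of them had both channels above background (all lower, median -3.02), and the median was -2.89 without the offset and -3.47 with the processed signals. Lower too were 12 of 12 megakaryocyte markers (median -1.78, sums of 95219 and 92679 against 26301 and 25524), but with median centring 10 were lower and 2 higher (median -1.09). Of 11 stem and progenitor markers, where Runx1 is also expressed, 10 fell and 1 rose (median -2.51, sums of 46209 and 47261 against 20385 and 20281), and 7 of these 10 had both channels above background. Endothelial and stromal markers fell in 10 of 11 cases (median -1.11) and hepatocyte markers in 6 of 8 (median -0.60). With both channels above background the lower calls were 4 for each list, and the processed signals gave medians of -3.10 and -1.10. Only 5 of 12 lymphocyte markers were measured, 3 lower and 2 higher. Of 16 erythroid markers 15 were measured, of which 13 rose, none fell and 2 did not pass (median 0.89, sums of 482002 and 408022 against 814549 and 724296). With the vector the granulocyte markers had larger sums (1225681 and 1359512). Sums over different probes do not compare RNA amounts between cell types, and Hbb-b1 of the erythroid list was not measured. A change between conditions does not check the labelled cell type.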

How the data were processed

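Two-colour arrays measured ESlncRNA (Cy5) over vector (Cy3) on 2 arrays, 1 for each replicate. The authors' deposited spot intensities, were written by Feature Extraction (version 10.1.1.1), per the file headers. They are mean spot signals and median local backgrounds, uncorrected; processed intensities are background-subtracted and dye-normalized. The deposited log10 ratios served to check direction (r = 0.786 and 0.810 with the ratios used here). The authors' deposited log2 value table, for which the submitters' processing notes name limma without a version, had medians of -0.02 and -0.01. Direction was taken from its correlation with ratios made here without background subtraction (r = 0.99996 on both arrays). A correlation does not give the scale, but values were alike in size, such as -4.34 for Cebpe in both.

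Here background was corrected with normexp (offset 50) and arrays were normalized with loess in limma 3.58.1 (R 4.3.3), with control and outlier-marked spots (284 and 308 of 59305; 0 saturated) at weight 0. Normalised intensities are the channel values after these steps. A probe entered the test if on each array either channel was well above background (26790 of 55681), and a gene was represented by its probe of highest mean intensity. All 10 probes of the 9 factors were well above background in both channels on both arrays. Channels were paired by array, since both of a replicate share one, and a linear model with an intercept (1 residual and 5.27 prior degrees of freedom) gave p-values, with Benjamini-Hochberg adjustment across these 26790 probes. A fold written "at least" divides the bright channel by a floor for the dim one, which is its own signal or, where higher, the dimmest signal still well above background. Channels were made comparable for this by loess and Aquantile, and dye bias can enter it. The number of arrays limits the precision. The steps were tested on simulated arrays, where few probes changed and both directions were equally common. That does not test the choice of normalization for these arrays.

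Named genes are the 9 factors, in each list the 4 genes of smallest p, closest relatives of the factors and the ESlncRNA interval, with exceptions marked. No gene was named by likeness of pattern, since 2 arrays of 1 comparison give none. The members and lists were chosen with earlier results of these data known, and lists are described by counts and medians with no test of the list. Probes were named through RefSeq (GRCm38.p6) by accession (26407), symbol (3864) or older symbol (735), while 24675 are called as in the array file. Alternatives covered background correction, normalization, filter, probe choice, pairing and the deposited value table.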

Additional observations from a re-analysis of the deposited data

How the results depend on the processing

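For the 10 probes of the 9 factors, direction was the same under every alternative tried, and each alternative with a test gave the same call except median centring, under which the brighter Runx1 probe stood at -0.17 (adjusted p = 0.063). Each array alone allows no test; its values stand in the text. The fit without the replicate block (channels unpaired) changed no call of the 10 probes, while genes called higher over the whole array went from 5223 to 3446. All 9 factors were called lower under each alternative but median centring, where 8 were. Genes called lower numbered 7305 as reported, 4706 from the scanner software's processed signals and 3633 after median centring, which called 12511 higher. Family relatives were 11 lower and 15 higher with median centring (median 0.09), and 4 were higher in the deposited value table. Under median centring 2 targets of PU.1 and C/EBP proteins were higher, 3 other myeloid regulators were higher, 1 corepressor was lower and 11 higher, and 0 erythroid factors were lower. Other myeloid regulators called higher were 2 with the processed signals, 0 with both channels above background and 0 with a gene's probes averaged, and 5 corepressors were higher with the processed signals. Under median centring Ehmt2 stood at 0.39, Irf3 at 0.53 and Lyl1 at 0.15. The lymphocyte median was 0.01 with no filter and 0.01 with both channels above background. For these changes the cause was not tested. Signal over background limits the value of Sfpi1.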

Other observations

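Receptors through which myeloid growth factors act differed in size among the targets of PU.1 and C/EBP proteins. Csf2rb, the common beta chain of the GM-CSF, interleukin-3 and interleukin-5 receptors, was 11.8-fold lower and Csf1r, the M-CSF receptor, 9.90-fold lower. Il6ra, the interleukin-6 receptor, was 6.64-fold and Csf2ra 2.72-fold lower. Csf3r, the receptor of granulocyte colony-stimulating factor, was at -0.33 and -0.26 on the 2 arrays (mean -0.29, adjusted p = 0.00254), and with median centring it was called higher. The 3 Csf1r probes gave -3.31, -1.73 and -0.23, and the 2 Csf2rb probes -3.57 and -2.48, so for these genes the size of the fall depends on the probe. These receptors were singled out after their values were seen.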
